A study of Mus musculus with 24 samples.

Results

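Lower glucose in growth medium was examined in C2C12 cells, a mouse myoblast line that can leave the cell cycle and fuse into myotubes. The members are the arrays titled GM_5mM and GM_25mM, replicates 1 to 3 of each, on the array designs MA and MB: 12 of the 24 arrays, from 6 of the 12 cultures in the series. Both groups held the same line in the medium the titles call GM, which in this line usually means growth medium, and they differ in the titles by glucose alone, 5 mM or 25 mM. The other 6 cultures were in DM, usually differentiation medium, at the same glucose levels. The series states an interest in calorie restriction and the differentiation of muscle precursors. The time at each glucose level, the serum and the number of passages were not given in the sources used here, and the labels do not say whether replicates, here called cultures, were grown separately, so a p-value covers the spread among these samples, which may be technical.

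Proliferating myoblasts take up glucose and turn most of it into lactate, and they keep oxidative metabolism in reserve until differentiation. Glucose 6-phosphate activates the transcription factors MondoA and ChREBP, which with their partner Mlx bind carbohydrate response elements. Txnip, an arrestin-domain protein that removes glucose transporters from the cell surface, is their best known target and is lowered when glucose falls. Mgll encodes monoacylglycerol lipase, the enzyme that releases the last fatty acid from a monoacylglycerol, including the signalling lipid made from arachidonic acid.

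Promoters of Txnip and Mgll are shown, as given by RefSeq for GRCm38.p6 from 250 bases before to 50 after the gene start. That of Txnip is shown because it holds a carbohydrate response element form, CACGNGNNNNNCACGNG, and that of Mgll because it was the only gene called and holds the E-box CACGTG, the palindromic core of which that element is a doubled, looser form. Capitals mark the match, which begins 85 bases before the start in Txnip and 44 bases before it in Mgll. 
Txnip, chr3:96557707-96558006, plus strand: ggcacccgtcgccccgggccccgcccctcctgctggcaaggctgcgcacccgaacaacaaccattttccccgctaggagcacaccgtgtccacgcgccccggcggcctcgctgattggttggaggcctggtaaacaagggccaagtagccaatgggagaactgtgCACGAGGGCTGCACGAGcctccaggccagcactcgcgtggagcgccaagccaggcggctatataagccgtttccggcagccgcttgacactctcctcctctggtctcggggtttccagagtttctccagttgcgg
Mgll, chr6:88724162-88724461, plus strand: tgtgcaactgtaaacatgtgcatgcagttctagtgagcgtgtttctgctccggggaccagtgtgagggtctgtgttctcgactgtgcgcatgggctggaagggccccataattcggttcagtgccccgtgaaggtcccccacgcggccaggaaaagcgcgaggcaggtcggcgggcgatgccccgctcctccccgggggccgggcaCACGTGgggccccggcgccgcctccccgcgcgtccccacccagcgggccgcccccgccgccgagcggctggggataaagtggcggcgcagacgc
Searched on both strands, the long form was found in 16 of 32851 such promoters (0.0487%) and CACGTG in 2349 (7.15%). A second RefSeq start of Mgll, whose window begins at 88724454, has no CACGTG. A match is a description of letters, not a bound site.

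The arrays of the low-glucose group were not alike. The control probe sets for 18S ribosomal RNA, as a geometric mean on MA, read 3.71 and 6.66 in GM_5mM-1 and GM_5mM-2, here called low-18S, against 466 in GM_5mM-3 and 314 to 801 in the 3 cultures at 25 mM. The log2 ratio of the 3′ to the 5′ control of Actb on MA, a sign of RNA quality, was -0.04 and -0.05 in the low-18S pair, 0.38 in GM_5mM-3 and 0.34 to 0.55 at 25 mM. The brightest genes moved with that division. Among the 50 brightest genes on MA, the low-18S pair lay below all 3 cultures at 25 mM in 50, with a median ratio to the 25 mM mean of 0.626, while GM_5mM-3 had a median ratio of 1.05. Rpl41, a ribosomal protein, read 21986, 18826 and 18969 at 25 mM, then 9752 and 8597 in the low-18S pair and 19881 in GM_5mM-3. The part of this division in the glucose comparison was not tested, so each main value is given also for GM_5mM-3 alone and from a fit with the 18S division as a block, to which 2 DM cultures with low 18S contribute.

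**Figure D1:**
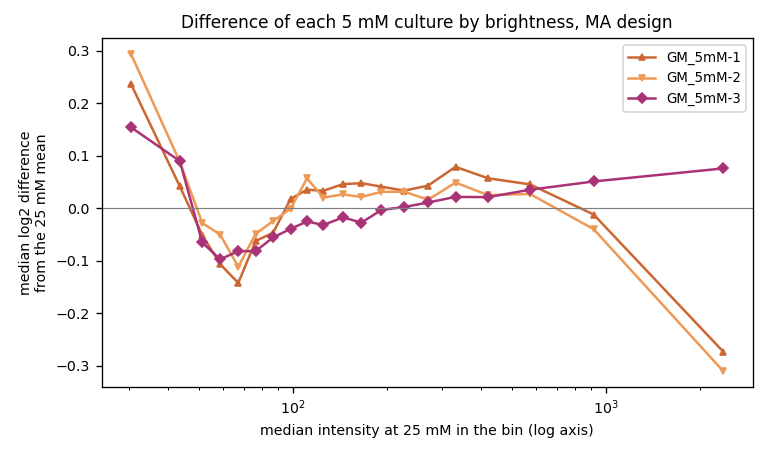
Probe sets of the MA design in bins of equal size by intensity at 25 mM (x axis, log scale) against the median log2 difference of each 5 mM culture from the mean of the 3 cultures at 25 mM (y axis, log2 of intensity + 20), with a line for each 5 mM culture. In the brightest bin, at a median intensity of 2370, GM_5mM-1 and GM_5mM-2 lie at -0.27 and -0.31 and GM_5mM-3 at 0.08.

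Cells carried the markers of myoblasts in both groups. Des, the muscle intermediate filament, read 1037 to 1257 at 25 mM and 1051 to 1239 at 5 mM. Cdh15, or M-cadherin, read 511 to 644 and 578 to 679. All 7 of 7 myoblast markers passed the filter. So did all 5 of 5 markers of differentiated muscle, as the filter takes the mean over DM arrays too. Passing it is thus no mark of the state in GM. Ncam1, a cell adhesion molecule, read 1238 to 1444 at 25 mM and 765 to 1216 at 5 mM, and Cdh2, or N-cadherin, 157 to 224 and 230 to 362, so these lay apart in opposite directions with GM_5mM-3 just outside the controls. The summed intensity of the 7 was 4388 to 5006 at 25 mM and 4209 to 4755 at 5 mM. Markers of differentiated muscle were near background, with a sum over Myog, Acta1, Myh3, Ckm and Tnnc2 of 69.4 to 205 and 74.7 to 131. Markers of blood and endothelial cells, of which 4 of 11 passed the filter, summed to 455 to 540 at 25 mM and 296 to 338 at 5 mM, with Ptprc at 4.13 to 14.0 and Pecam1 at 4.01 to 35.2 over the 6 cultures. No marker of the latter list exceeded the 149 of Cd14, and their part in the results was not tested. In total RNA from a culture, fewer cells of a type and less RNA per cell cannot be told apart.

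Very little passed the test in GM. Limma called 1 of 27081 probe sets at a Benjamini-Hochberg adjusted p under 0.05, higher at 5 mM (0.00369%), and 0 lower, while 2405 (8.88%) had an unadjusted p under 0.05. With each gene represented by its brightest tested probe set, with MA preferred, the 3 cultures at 5 mM lay entirely above the 3 at 25 mM for 958 of 12851 genes (7.45%) and entirely below for 1156 (9.00%). By p, 585 genes (4.55%) were higher and 628 (4.89%) lower at an unadjusted p under 0.05, and 400 (3.11%) and 396 (3.08%) with the 18S block. Array weights, which let the low-18S pair count most, called 437 probe sets higher (1.61%) and 423 lower (1.56%). The median difference of all genes was -0.01. Differences here are log2(intensity + 20) at 5 mM minus that at 25 mM, which understates the change of dim genes. The direction of this split depended on scale: the median intensity of the MA arrays was 59.0 to 61.2 at 25 mM and 52.2 to 54.1 at 5 mM, and centring each array on its median gave 1885 genes above and 592 below and moved the median of all genes to 0.12. It also depended on brightness. Among probe sets with a mean intensity under 100, 4.33% lay above and 11.2% below, whereas from 500 to 2000 the shares were 12.2% and 4.32%.

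Mgll was the gene that passed. On the called probe set, 1426785_s_at, Mgll read 8.45, 14.2 and 11.8 in the 3 cultures at 25 mM and 70.2, 62.9 and 53.8 at 5 mM. The groups did not overlap and the 3 low-glucose cultures were close together, with means of 11.5 ± 2.87 and 62.3 ± 8.22 (SD, n = 3 each). Mgll (chromosome 6, 88724412 to 88828360, GRCm38.p6) thus rose by 1.39 (SE 0.16; limma, adjusted p = 0.0059). GM_5mM-3 alone lay 1.23 above the 25 mM mean, and the fit with the 18S block gave 1.30 (adjusted p = 0.0166). The values at 25 mM are near background, so that the size depends on the pseudocount: it was 2.36 with 1 and 0.74 with 64. Across the other settings the adjusted p ran from 0.00027 to 0.417, the highest with the 8 high-18S cultures only, where the difference was 1.23.

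The other tested probe sets of Mgll did not follow. Probe set 1450391_a_at read 43.6, 84.4 and 55.3 at 25 mM and 33.2, 32.1 and 61.0 at 5 mM, a difference of -0.38 that overlapped between groups. Probe set 1453836_a_at read 17.9, 50.6 and 29.9 against 39.5, 42.9 and 45.0, a difference of 0.29 that also overlapped. The probe set that was called has the suffix _s_at, given to probe sets that can match more than 1 transcript. The rise therefore belongs to 1 of 3 probe sets and was not shown for the gene as a whole.

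**Figure D2:**
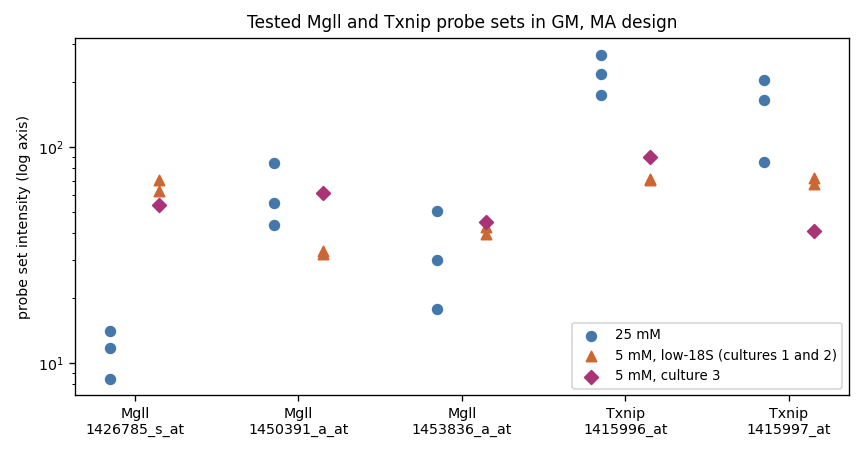
Intensity (y axis, log scale) of each GM culture on the 3 tested probe sets of Mgll and the 2 of Txnip (x axis), all on MA; circles are cultures at 25 mM, triangles the low-18S cultures at 5 mM and diamonds GM_5mM-3. Groups are apart on 1 Mgll probe set (8.45 to 14.2 against 53.8 to 70.2) and on both of Txnip, where all 5 mM cultures are lower.

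Txnip read lower in every low-glucose culture but did not pass the test. On 1415996_at it read 175, 219 and 267 at 25 mM and 70.3, 70.8 and 89.8 at 5 mM. On 1415997_at it read 85.0, 164 and 205 at 25 mM and 67.3, 71.6 and 40.9 at 5 mM. On both probe sets every low-glucose culture lay below every culture at 25 mM, and GM_5mM-3 was among them. The difference was -1.30 (SE 0.25; limma, adjusted p = 0.269) on the first probe set, -1.11 in GM_5mM-3 alone and -1.18 with the 18S block. It was called under array weights and under none of the other 18 settings tried.

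The other genes tied to glucose sensing were mixed. Of 15 listed genes 12 were measured, 1 lay above and 2 below without overlap (8.33% and 16.7%), and 0 were called; the list median was -0.01 and was 0.11 with median centring. Bhlhe40, a repressor with a basic helix-loop-helix that glucose and hypoxia can induce, read 69.1, 116 and 122 at 25 mM and 192, 189 and 133 at 5 mM, so that GM_5mM-3 lay just above the highest control. Fgf21, a hormone that cells secrete under metabolic stress, read 11.5, 16.2 and 30.8 at 25 mM and 5.59, 6.81 and 9.46 at 5 mM, all near background.

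Beyond Mgll, genes were ranked by p among those whose groups did not overlap, and the first 15 in each direction are described. Their adjusted p ran from 0.0059 for Mgll to 0.553, so none of the other 29 passed. Since non-overlap and a small p chose them, the sign of the difference in GM_5mM-3 is fixed by the choice and is no finding. For 23 of the 30 that difference was smaller than the mean of the low-18S pair. Probe sets of a gene often differed. Of 45 genes chosen here whose groups lay apart and that have more than 1 tested probe set, every other probe set lay apart in the same direction for 5, among them Txnip, and some probe set lay apart in the opposite direction for 5, which were Klf6, Mef2d, Nup188, Tgfb1 and Tmem38a. A difference given for 1 probe set is therefore not one of the whole gene.

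Genes higher at 5 mM are given first. Rer1, which returns escaped proteins from the Golgi to the endoplasmic reticulum, read 70.5, 102 and 46.8 at 25 mM and 201, 199 and 162 at 5 mM on 1460660_x_at. Its other probe set, 1460706_s_at, had a difference of 0.06. Yod1, a deubiquitinase that acts in the degradation of endoplasmic reticulum proteins, read 51.4, 36.0 and 71.3 against 301, 316 and 121, and Marchf11, a membrane ubiquitin ligase, read 21.4, 25.2 and 26 against 132, 174 and 123. For Yod1 the low-18S pair stood far above GM_5mM-3, and its second probe set had a difference of -0.37. For Marchf11 the 3 low-glucose cultures were alike, but all 3 values at 25 mM are under the MB filter threshold of 63.7. Its difference of 1.87 ran from 1.22 to 2.50 across settings.

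Insig1, the endoplasmic reticulum protein that holds back the sterol-regulated factor SREBP and is itself its target, read 383, 462 and 292 at 25 mM and 637, 814 and 561 at 5 mM. Sdc2, a heparan sulfate proteoglycan of the cell surface, read 538, 578 and 608 against 964, 879 and 775. Its other MA probe sets overlapped because GM_5mM-3, at 178 and 409, was not above the controls, at 154 to 214 and 483 to 501. Tmem38a, a potassium channel of the sarcoplasmic reticulum, read 7.80, 11.6 and 11.8 against 27.6, 24.2 and 23.2, near background in both groups. Its other probe set, 1424177_at, lay apart in the opposite direction, at 40.3, 59.5 and 58.0 against 31.3, 33.6 and 13.9, a difference of -0.67. Sh3bp4, an adaptor of endocytosis that also restrains amino acid signalling to mTOR, read 71.3, 71.0 and 62.0 against 118, 107 and 102, and its probe set on MB overlapped, with a difference of 0.19. In Insig1, Sdc2, Tmem38a and Sh3bp4 GM_5mM-3 was the lowest of the 3 cultures at 5 mM. Thap1, a zinc finger factor, had a difference of 1.48 (SE 0.32) with 0.99 in GM_5mM-3, but its other probe set overlapped. Lrrc58, a leucine-rich repeat protein, had a difference of 0.88 (SE 0.20) with 0.67 in GM_5mM-3. Pwwp3b and the predicted gene Gm12446 differed by 0.99 (SE 0.24) and 1.66 (SE 0.42), with 0.88 and 1.57 in GM_5mM-3.

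Among the genes lower at 5 mM, those of Zfp334 and Necab2 varied little within each group. Zfp334, a zinc finger protein, read 152, 132 and 157 at 25 mM and 70.6, 55.7 and 77.0 at 5 mM. Necab2, a calcium-binding protein known from neurons, read 190.2, 200.1 and 186 against 75.7, 75.1 and 87.5. Neither gene belongs to a list used here. Kcnk13, a background potassium channel, read 33.6, 24.6 and 33.9 against 6.86, 6.81 and 2.72. All 6 of its GM values lie under the filter threshold of 35.5, which it passed through DM, and the values at 5 mM are near background, so that its difference of -0.99 ran from -0.45 to -2.36 with the pseudocount.

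Chac1, which degrades glutathione and is a target of the stress factor ATF4, read 176, 167 and 108 at 25 mM and 86.6, 61.3 and 59.3 at 5 mM, a difference of -0.92 (SE 0.20; limma, adjusted p = 0.297). GM_5mM-3 was the lowest of the 6, at -1.08. Cdh7, a cadherin, read 227, 143 and 167 against 21.1, 17.9 and 39.1, and Sh3d21 read 281, 223 and 265 against 57.7, 20.6 and 49.0, the largest differences of the 30. Both are on MB, where cultures of a group correlated less (0.754 to 0.907 across probe sets) than on MA (0.955 to 0.986). All values of both genes at 5 mM in GM are under the MB filter threshold of 63.7. Cdh7 passed it only through the 25 mM cultures in GM, where it is high, so its place in the ranking is no finding. Dusp27, a muscle pseudophosphatase, read 270.4, 162 and 259 against 139, 91.6 and 30.5, and its second probe set differed by 0.71 the other way.

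The other genes of the lower 15 follow. Crcp, a subunit of RNA polymerase III, read 208, 209.6 and 155 at 25 mM and 86.3, 110.5 and 113 at 5 mM. Rpf2, an assembly factor of the large ribosomal subunit, read 142, 151 and 114 against 72.7, 81.0 and 68.0, but on 1425884_at GM_5mM-3 read 189, above all 3 controls. Nup188, of the nuclear pore, read 262, 321 and 314 against 163, 155 and 225. In Nup188 the low-18S pair was lower than GM_5mM-3, whose difference was -0.38, and a probe set on MB lay apart the other way, with a difference of 0.59. Atf7, a relative of CREB, differed by -0.73 (SE 0.15), and Tcl1b3, Reg3b and Rhox5, genes of embryonic, gut and reproductive tissue, by -0.92 (SE 0.21), -1.10 (SE 0.27) and -1.17 (SE 0.29). Reg3b read 54.1 to 70.8 at 25 mM and 9.87 to 35.1 at 5 mM, and Rhox5 52.6 to 85.3 and 8.59 to 31.0. Both passed the filter threshold of 35.5 only through the 25 mM cultures in GM, so their place in the ranking is no finding. Across settings the differences ran from -0.61 to -1.78 for Reg3b and from -0.65 to -1.91 for Rhox5.

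Of the 24 ranked genes with a promoter in the RefSeq table, 6 held CACGTG (Atf7, Insig1, Lrrc58, Mgll, Nup188 and Rpf2) and 1, Txnip, held the long form shown above. A gene counted if any of its starts matched. The 7.15% given above for CACGTG is a share of single promoters, so it is no background for this count. Enrichment was not tested.

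**Figure D3:**
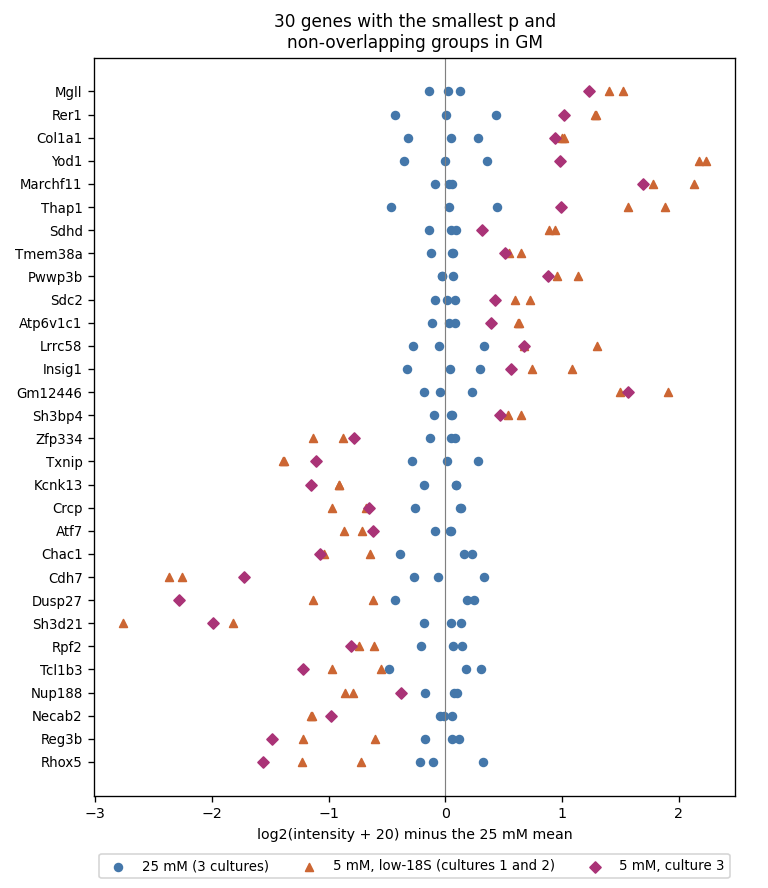
Log2(intensity + 20) of each GM culture minus the mean at 25 mM (x axis) for the 30 ranked genes (y axis), with circles for the 3 cultures at 25 mM, triangles for the low-18S cultures at 5 mM and diamonds for GM_5mM-3. Non-overlap was a condition of choice; the diamonds lie nearer to 0 than the mean of the triangles for 23 genes and run from -2.28 for Dusp27 to 1.70 for Marchf11.

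Enzymes of glucose uptake and glycolysis showed no called member. Of 29 listed, 22 were measured, and 2 lay above and 1 below without overlap (9.09% and 4.55%, against 7.45% and 9.00% of all genes). These shares of all genes are the background for every list given here. The median was -0.14, or -0.02 with median centring and 0.04 with the 18S block. Slc2a1, the constitutive glucose transporter, read 256 to 307 at 25 mM and 213 to 304 at 5 mM, and Hk2, the inducible hexokinase, read 101 to 147 and 109 to 155. Both overlapped between groups. Pfkp, the platelet phosphofructokinase, read 223, 236 and 213 against 163, 181 and 177, and GM_5mM-3 was with the pair. The lactate transporter Slc16a1 read 566, 559 and 665 against 688, 806 and 767, and the insulin-responsive transporter Slc2a4 39.5, 47.9 and 51.2 against 63.7, 65.8 and 54.8.

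In the pentose phosphate, hexosamine and glycogen list 21 of 29 were measured, 2 lay above and 2 below (9.52% each), and the median was 0.16, but 0.03 with the 18S block. Gyg, the primer of glycogen, read 70.1, 42.1 and 61.9 at 25 mM and 96.7, 112 and 111 at 5 mM, and its probe set on MB overlapped, with a difference of 0.08. Ugp2, which makes UDP-glucose, read 346, 367 and 395 against 457, 508 and 405. Uap1, which makes the UDP-N-acetylglucosamine that glycosylation uses, read 164, 194 and 130.0 against 102, 108 and 105.

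The TCA cycle and pyruvate dehydrogenase list leaned to higher values. Of 32 listed, 30 were measured, and 7 lay above and 0 below without overlap (23.3% and 0%, against 7.45% and 9.00% of all genes). At a limma unadjusted p under 0.05, 8 were higher and 0 lower, beside 4.55% and 4.89% of all genes, and 0 were called. Among all probe sets with a mean intensity of 500 to 2000, 12.2% lay above and 4.32% below. The median was 0.14, with 0.26 in the low-18S pair, 0.05 in GM_5mM-3 and 0.07 with the block, beside -0.01 for all genes. The 7 genes were Sdhd, Pdk2, Idh3b, Mpc1, Pdhb, Sdha and Dlst. A shift of this list was known from earlier results on these cultures, so its counts are no independent support.

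Sdhd, which anchors succinate dehydrogenase in the membrane, read 750.1, 725 and 635 at 25 mM and 1365, 1318 and 875 at 5 mM, and its other probe set overlapped, with a difference of 0.10. Sdha, the catalytic subunit, read 751, 820.4 and 747 against 924, 969 and 891. Idh3b, of the NAD-dependent isocitrate dehydrogenase, read 603, 559 and 657 against 777, 854 and 728. On MA, the other probe sets of Sdha and Idh3b overlapped, with differences of 0.11 and 0.09. Mpc1, a subunit of the pyruvate carrier, read 202, 191 and 160.0 against 363, 495 and 211, with GM_5mM-3 just outside the range at 25 mM. Pdhb, of pyruvate dehydrogenase, read 773, 703 and 858 against 950.4, 1043 and 929. Pdk2, a kinase that shuts that enzyme off, read 6.70, 5.33 and 23.5 against 45.9, 43.5 and 24.8. Its values at 25 mM were near background, and GM_5mM-3 lay just above the highest control.

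Oxidative phosphorylation genes depended on the low-18S pair. Of 69 listed, 64 were measured, 5 lay above and 0 below (7.81% and 0%), and the median was -0.04, or 0.07 with median centring. It was -0.14 in the pair, 0.11 in GM_5mM-3 and 0.16 with the block. Ndufs4 and Ndufb2, subunits of complex I, read 210.1 to 255 and 705 to 779 at 25 mM and 272 to 285 and 828 to 851 at 5 mM. Atp5e, of ATP synthase, read 497 to 565 and 581 to 613. These 3 did not overlap, with limma unadjusted p of 0.0815, 0.0973 and 0.197, but the other 3 probe sets of Ndufs4 overlapped. A further MA probe set of Ndufb2, 1416834_x_at, also lay above, with a difference of 0.29.

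Among the lipid genes only Mgll was called. In the list of monoacylglycerol, lipid droplet and lipolysis genes 26 of 34 were measured. Of these, 2 lay above, Mgll and Agpat2, and 2 below (7.69% each). The median was -0.10 and 0.01 with median centring. Dgat2, which makes triglyceride, read 131, 129 and 116 at 25 mM and 101, 107 and 100.4 at 5 mM, and Lpl, which frees fatty acids from lipoproteins, read 74.6, 89.4 and 72.2 against 67.0, 62.9 and 56.6. In the fatty acid oxidation list 32 of 42 were measured and 1 lay on each side (3.12%), with a median of 0.02, or -0.02 with quantile normalization. Cpt1a, which admits fatty acids to the mitochondrion, read 489.8 to 619 and 557 to 744 and overlapped. Slc25a20, the carnitine carrier, read 88.6, 181 and 107 against 82.1, 74.7 and 78.5, but its other probe set differed by 0.22 the other way.

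Cholesterol and fatty acid synthesis had 4 genes above and 0 below among 32 measured of 37 (12.5% and 0%), but 1 above with quantile normalization, and a median of 0.09, which was 0.09 in GM_5mM-3 and 0.10 with the block. Besides Insig1 these were Ebp and Idi1 of the sterol pathway and Acly, which makes cytosolic acetyl-CoA. Ebp read 392, 469.6 and 416 at 25 mM and 507, 481 and 519 at 5 mM, and Idi1 209, 207 and 216 against 232, 216 and 269.9. Idi1 is separated by less than 1 intensity unit.

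**Figure D4:**
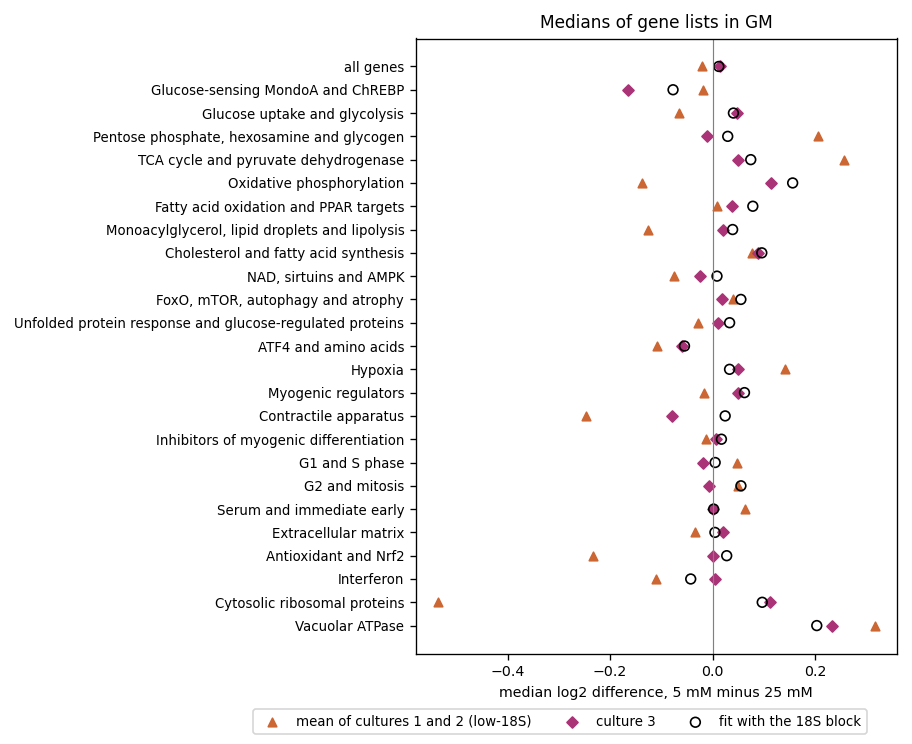
Median log2 difference from 25 mM (x axis) of the measured genes of each list (y axis), with triangles for the mean of the low-18S cultures, diamonds for GM_5mM-3 and open circles for the fit with the 18S block. For ribosomal proteins the triangle is at -0.54 and the diamond at 0.11, whereas for cholesterol synthesis they are at 0.08 and 0.09.

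Among sensors of low energy no member was called. In the list of NAD synthesis, sirtuins and AMPK 25 of 30 were measured. Of these, 0 lay above and 3 below (0% and 12%, against 7.45% and 9.00% of all genes). The AMPK catalytic subunits Prkaa1 and Prkaa2 read 53.8 to 91.0 and 63.0 to 169.8 at 25 mM and 79.2 to 139.9 and 39.9 to 109.7 at 5 mM, and both overlapped. Nampt, the rate-limiting enzyme of NAD salvage, read 154 to 177 and 161 to 247, and Sirt1, a deacetylase that needs NAD, 45.8 to 84.0 and 57.6 to 67.0. The 3 below were Sirt3, its mitochondrial relative, at 99.1, 54.5 and 72.6 against 50.5, 37.1 and 39.5, Prkab1, a regulatory subunit of AMPK, and Nadsyn1. Their limma unadjusted p were 0.0611, 0.0639 and 0.118. On a further probe set of Prkab1, 1452457_a_at, the groups overlapped, with a difference of 0.69 the other way.

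FoxO, mTOR, autophagy and atrophy genes went both ways, with 2 above and 2 below among 35 measured of 38 (5.71% each). Map1lc3b, the autophagosome protein, read 422, 457 and 518 at 25 mM and 663, 653 and 536 at 5 mM. Atg5, needed to attach such proteins to lipid, read 107, 121 and 119 against 89.1, 79.5 and 91.0. The other probe sets of both genes overlapped. Trim63, an atrophy ubiquitin ligase, read 47.6, 14.5 and 60.4 against 4.28, 12.7 and 13.4, near background.

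Stress pathways of the endoplasmic reticulum were not moved as a group. Of 32 genes of the unfolded protein response, all measured, 3 lay above and 3 below (9.38% each). Hspa5, the glucose-regulated chaperone also called BiP, read 2562, 1979 and 1723 at 25 mM and 2161, 2300.1 and 2005 at 5 mM, overlapping. Herpud1, a degradation factor of the same response, read 298, 280.4 and 274 against 736, 756 and 334 on 1 probe set, where the pair stood far above GM_5mM-3, and differed by 0.01 on the other. Sel1l, its partner in degradation, read 115, 159 and 93.3 against 168, 169 and 204, and its other probe sets overlapped. The oxidase Ero1b read 88.0, 93.0 and 65.6 against 38.1, 40.1 and 50.5.

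ATF4 targets and amino acid genes had 0 above and 5 below among 40 measured of 45 (0% and 12.5%), and 2 on each side with median centring, which moved the median from -0.09 to 0.03. With the 18S block it was -0.05. Besides Chac1 the 5 were Stc2, Phgdh, Mthfd2 and Mars1. Phgdh, which opens serine synthesis from a glycolytic intermediate, read 2017, 1612 and 1723 at 25 mM and 1229.8, 1265 and 1557 at 5 mM, with GM_5mM-3 nearest the controls, and 1 of its other 3 probe sets overlapped. Stc2, a secreted glycoprotein, read 61.1, 68.4 and 55.0 against 30.5, 27.5 and 46.2, and its other probe sets overlapped, with differences of 0.55 and -0.03.

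Hypoxia genes had 4 above and 1 below among 23 measured of 26 (17.4% and 4.35%), with a median of 0.17 that was 0.05 in GM_5mM-3 and 0.03 with the block. Egln3, a prolyl hydroxylase that the hypoxia-inducible factor induces, read 174, 182 and 211 at 25 mM and 335, 333 and 229 at 5 mM. Ndrg1 read 343, 292 and 348 against 454, 404 and 360.4. In both GM_5mM-3 was nearer to the controls than the pair was.

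The myogenic regulators were not shifted, with 3 above and 3 below among 21 measured of 23 (14.3% each). Myod1, which commits cells to muscle, read 1092, 1153 and 1038 at 25 mM and 1341, 976 and 1077 at 5 mM and overlapped. Mef2d and Mef2a, partners of the MyoD family, read 126 to 149 and 192 to 246 at 25 mM and 150.4 to 214 and 248 to 308 at 5 mM. In both GM_5mM-3 lay within 3 units of the highest control. A further probe set of Mef2d lay higher with a difference of 0.62, but 1421388_at lay apart the other way, at -0.60, and the other probe sets of Mef2a overlapped. Srf, the serum response factor, read 287, 237 and 210.5 against 174, 175 and 185. Cdkn1a, the p21 inhibitor that myoblasts raise on leaving the cycle, read 650.4, 683 and 637 against 487, 458 and 674, so only the low-18S pair was low on that probe set. On its other, 1421679_a_at, all 3 cultures at 5 mM lay below the controls, a difference of -0.90.

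Contractile genes, most of them dim in GM and kept by the filter through DM, had 1 above and 8 below among 44 measured of 49 (2.27% and 18.2%). With quantile normalization 1 lay above and 2 below, and the median of -0.25 was -0.08 in GM_5mM-3 and 0.02 with the block. The signals were small: Csrp3, a Z-disc protein, read 38.4, 59.4 and 29.95 at 25 mM and 18.2, 25.3 and 12.8 at 5 mM, and Ttn 3.92 to 6.01 and 3.02 to 3.90. Tnni2, fast troponin I, was the 1 above, at 7.73, 7.58 and 18.7 against 23.2, 25.4 and 34.5, and its other probe set differed by -0.32. Among inhibitors of myogenic differentiation 3 lay above and 4 below of 26 measured of 30 (11.5% and 15.4%). Hey1, a Notch target that represses MyoD, read 14.1, 35.7 and 16.4 against 36.7, 45.7 and 60.5, and Tgfb1 391, 424 and 466 against 615, 651 and 517. The MB probe set of Tgfb1 lay apart the other way, at -0.52. Inhba, the activin A subunit, read 152, 200.3 and 159.6 against 53.5, 65.4 and 116.

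Proliferation genes did not separate the groups. In the G1 and S phase list 2 lay above and 1 below among 37 measured of 39 (5.41% and 2.70%), and in the G2 and mitosis list 4 and 3 among 37 of 38 (10.8% and 8.11%). Mki67, a marker of cycling cells, read 1003, 863 and 730.0 at 25 mM and 951, 866 and 979 at 5 mM. Ccnd1, cyclin D1, read 638 to 875 and 508 to 718, whereas Ccnd2, its relative, read 177, 188 and 146 against 103, 73.6 and 135, with 2 other probe sets that overlapped. Bub1, a kinase of the spindle checkpoint, read 178, 155 and 145 against 292, 294 and 201, and Birc5, or survivin, 805, 958 and 903 against 688, 676 and 777. These mitotic genes thus lay on opposite sides.

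Serum response genes had 3 above and 3 below among 29 measured of 30 (10.3% each), with Klf6 at 108 to 142 and 157 to 231 on 1 probe set and Jund at 861 to 1087 and 720.1 to 815. On another probe set of Klf6, 1427742_a_at, the groups lay apart the other way, with a difference of -0.45. In the matrix list 1 lay above and 2 below among 35 of 42 (2.86% and 5.71%). The 1 above was Col1a1, the first chain of type I collagen, at 20.4, 32.2 and 41.4 against 82.5, 81.2 and 77.2 on 1 probe set, while its other probe set differed by -0.26. Col6a2, a chain of type VI collagen, read 293, 309.6 and 369 against 201, 187 and 233 and was lower on both of its probe sets. Antioxidant genes had 3 above and 3 below among 25 of 30 (12% each), with the extracellular dismutase Sod3 at 161 to 211 and 100.5 to 126. Interferon genes had 0 above and 1 below among 10 of 25, the antiviral protein Rsad2 at 49.0 to 51.1 and 21.5 to 38.9.

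Ribosomal protein genes, among the brightest on the arrays, showed the 18S division most clearly. Of 48 listed 30 were measured, 0 lay above and 1 below (0% and 3.33%), and the median of -0.30 combined -0.54 in the low-18S pair with 0.11 in GM_5mM-3; it was 0.10 with the block and 0.01 with quantile normalization. The 1 below was Rps27, at 149.8, 117 and 271 against 83.8, 73.5 and 93.1.

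The glucose difference in GM was set against that in DM, where the same test called 234 probe sets (0.864%). The 2 comparisons share no culture. Across 12851 genes the differences in GM and DM had a Pearson correlation of -0.04 and a Spearman correlation of -0.05, and 47.3% of genes had the same sign, as a description over genes of 12 shared arrays of each design. Of the 173 genes called in DM, 96 had the same sign in GM, 23 lay outside the controls in GM in the same direction and 17 in the opposite one. These 40 are 23.1% of the 173, beside 16.5% of all genes. The interaction, the difference in DM minus that in GM, was called for 77 probe sets (0.284%), which represent 60 genes.

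The interaction was called for 10 of the genes described here, and for all 10 it stayed called with the 18S block. The interaction contains the GM difference, and all but Hspa5 and Mki67 had groups apart in GM, so it is no independent support for that difference. Mgll differed by 1.39 in GM and 0.20 (SE 0.16) in DM, an interaction of -1.18 (SE 0.22; limma, adjusted p = 0.0299), on its 1 called probe set. Sh3bp4 differed by 0.55 in GM and by -0.98 (SE 0.13) in DM, an interaction of -1.53 (SE 0.19, adjusted p = 0.00382). Col1a1 differed by 0.99 and -0.87 (interaction adjusted p = 0.00772), Bhlhe40 by 0.66 and -0.87 (0.0211), Herpud1 by 0.96 and -0.89 (0.0274), and Bub1 by 0.64 and -0.71 (0.0288). Kcnk13 went the other way, with -0.99 in GM and 0.95 in DM (0.00836), of which the GM value is near background, as did Phgdh with -0.40 and 0.92 (0.0226). Hspa5 differed by 0.06 in GM and -1.62 (SE 0.16) in DM (0.00671), and Mki67 by 0.11 and -0.92 (0.0211). For these 2 genes the difference lay in DM. Of the 10 genes, only Mgll was called in GM by itself. Mgll, Herpud1 and Bub1 were not called in DM by itself (limma, adjusted p = 0.788, 0.0992 and 0.0730). For Herpud1 the GM difference was 0.22 in GM_5mM-3 alone. Txnip differed by -0.04 (SE 0.25) in DM, but its interaction of 1.26 did not pass (adjusted p = 0.165). Chac1 fell by 1.02 (SE 0.20; limma, adjusted p = 0.0148) in DM beside -0.92 in GM, with an interaction of -0.10 (SE 0.28).

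**Figure D5:**
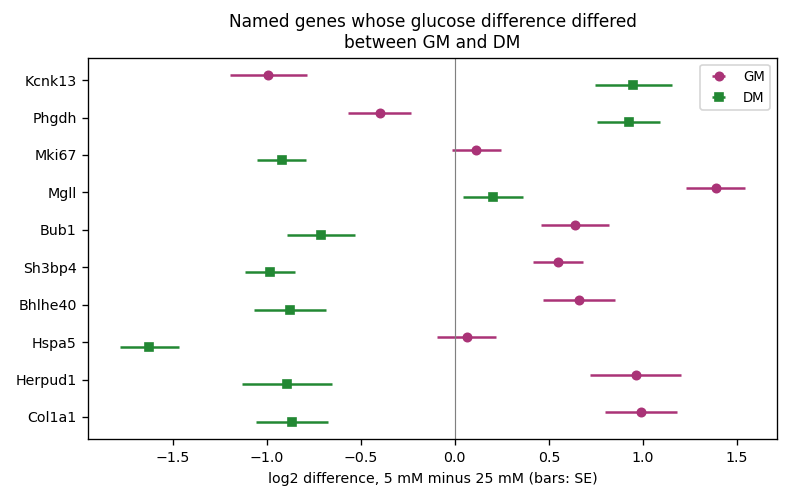
Log2 difference between 5 mM and 25 mM glucose (x axis, bars show the SE of the fit) in GM (circles) and DM (squares) for the 10 named genes whose interaction was called (y axis). Kcnk13, near background in GM, lies at -0.99 there and at 0.95 in DM, and Col1a1 at 0.99 and -0.87.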

How the data were processed

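The deposited values are probe set intensities on a linear scale; per the labels, biotin-labelled total RNA was hybridised, and the authors' software, background correction and scaling are not given in the sources used here. The mean after trimming 2% at each end was 150 on every array, so values were kept as deposited. Intensities were used as log2(intensity + 20). Probe sets above the 40th percentile of mean intensity were kept (13575 of 22690 on MA, above 35.5; 13506 of 22575 on MB, above 63.7), leaving out 64 controls on each design. Each design was fitted with limma 3.58.1 in R 4.3.3 (4 group means, 12 arrays, eBayes with trend, 8 residual degrees of freedom), two-sided, with Benjamini-Hochberg adjustment within a design; limma was tested on simulated data. One gene was named by 20380 probe sets on MA and 14661 on MB, several by 691 and 245, none by 1555 and 7605; symbols were updated through RefSeq. Named genes were Mgll, Txnip and a fixed set, the 15 smallest p in each direction without overlap, and up to 3 members of each of 26 lists. Members and lists were chosen with earlier results of these data known. Alternatives were other pseudocounts, filters, scalings, blocks, array weights and leaving out cultures. The number of arrays limits the precision.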

Additional observations from a re-analysis of the deposited data

Results flagged for a closer look

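The glucose difference in DM differed from that in GM, by limma's interaction term, for 10 genes described above. The difference in DM minus that in GM was -1.53 for Sh3bp4, -1.69 for Hspa5, -1.86 for Col1a1, -1.04 for Mki67, -1.53 for Bhlhe40, -1.85 for Herpud1, -1.35 for Bub1 and -1.18 for Mgll. It was 1.94 for Kcnk13 and 1.32 for Phgdh. Of these, Mgll, Col1a1, Herpud1, Sh3bp4 and Phgdh have other probe sets that overlap between the groups in GM, and Kcnk13 was near background in GM.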

How the results depend on the processing

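Over 13 alternative settings, 100 genes gave 1269 values: 1211 kept direction and side of the threshold, 42 became called, all under array weights, 3 lost a call and 13 reversed. In the main fit only Mgll of the 100 was called, and many were chosen by non-overlap. Keeping side and direction was thus largely set by the choice and is no support. The cause of the changes was not tested. The count of called probe sets was 0 with a pseudocount of 64 (2491 at an unadjusted p under 0.05), 0 with only the 6 GM arrays (2998), 0 with the high-18S cultures only (1076), 0 without _x_at and _s_at probe sets (2128), which removes the called one, and 860 with array weights (437 higher, 423 lower), which give GM_5mM-1 on MA a weight of 3.43 and GM_5mM-3 one of 0.473. Mgll lost its call with a pseudocount of 64 (0.74, adjusted p = 0.131), with the 6 GM arrays (1.39, 0.175) and with the high-18S cultures only (1.23, 0.417). Leaving out 1 culture gave 0 to 5 calls, 0 without GM_5mM-1 or GM_5mM-2 and 5 without GM_5mM-3, and 1.32 to 1.46 for Mgll, which was not called without GM_5mM-1 (0.0849) or GM_5mM-2 (0.0641). Genes with groups apart were 1885 above and 592 below with median centring, 1036 above and 2008 below with no filter, and 829 above and 662 below with the 60th percentile. Reversed were, with quantile normalization, Agpat2 (-0.022); with the 18S block Slc2a1 (0.033), Acsl4 (-0.18), Sirt1 (-0.22), Cdkn1a (0.13) and Ccnd1 (0.031); with the high-18S cultures only Slc2a1 (0.10), Hk2 (-0.21), Nampt (-0.025), Prkaa2 (0.094), Hspa5 (-0.039), Myod1 (-0.021) and Cdkn1a (0.037). Without 1 culture, Hk2 ran from -0.094 to 0.19, Myod1 from -0.091 to 0.13, Sirt1 from -0.064 to 0.27 and Hspa5 from -0.065 to 0.22. Of 27 list medians 9 changed sign with the 18S block, 10 with the high-18S cultures only and 8 with median centring. Replicate numbers did not pair the cultures (same-number correlations of deviations between -0.05 and 0.01), and with the number as a replicate block 1 probe set was called, Mgll at 1.39 (adjusted p = 0.0365).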

Other observations

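Subunits of the vacuolar ATPase, the proton pump that acidifies lysosomes and endosomes, were gathered after Atp6v1c1 had appeared among the ranked genes, so they were chosen after their values were seen. Of the 17 measured, 8 lay above without overlap and 0 below (47.1% and 0%, against 7.45% and 9.00% of all genes), 0 were called, and the median was 0.20, with 0.32 in the low-18S pair, 0.23 in GM_5mM-3 and 0.20 with the 18S block. With quantile normalization 7 lay above and 0 below. Atp6v1c1 read 341, 305 and 354 at 25 mM and 524, 527 and 441 at 5 mM, although a further probe set of it differed by -0.27. Atp6v1d read 263, 259.5 and 319.9 against 411, 427 and 384, Atp6ap2, an accessory subunit, 805, 815 and 842 against 1161, 978 and 1077, and Atp6v1f 296, 339 and 319.8 against 415, 393 and 390.4. That GM_5mM-3 lay above every culture at 25 mM in these 4 follows from their non-overlap and is no separate finding. Among subunits of the membrane sector, Atp6v0b and Atp6v0a2 overlapped, with differences of -0.01 and -0.07, whereas Atp6v0d1 lay above, with 0.43. Atp6v1e1, Atp6v1g1 and Atp6v1h also overlapped, with differences of 0.10, 0.04 and 0.08.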
